A study of Mus musculus with 108 samples.

Results

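AKR/J is an inbred laboratory mouse strain known for carrying endogenous murine leukaemia viruses and for a high rate of thymic lymphoma. Its lung was compared here with the lungs of 5 other inbred strains, and the genes described are those for which AKR/J lay apart from all of them. The members were chosen from 18193 genes, each represented by a single probe set. A gene was called apart when the AKR/J mean differed from the mean of the 5 other strain means and from each of the 5 strains by itself, always in the same direction, with every limma test passing an adjusted p of 0.05. This gave 189 genes, 113 higher and 76 lower in AKR/J lung.

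The study measured total RNA of brain, heart, kidney, liver, lung and testis on Affymetrix arrays in untreated males of 6 strains, with 3 arrays of every strain in every tissue. All animals were males aged 11 to 14 weeks, and no genotype other than strain, treatment or transgene is named. The lung groups were AKR/J (animals 1, 2 and 3), C57BL/6J (animals 2, 3 and 4), and A/J, C3HeB/FeJ, DBA2/J and 129S2 (animals 1, 2 and 3 of each). 129S2 came from Charles River and the other 5 strains from the Jackson Laboratory, so that supplier and strain cannot be told apart for 129S2. The hour of dissection, which bears on clock genes, is not stated in the labels.

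The lung is built of gas-exchanging alveoli lined by flat type 1 cells and surfactant-secreting type 2 cells, of airways with club and ciliated cells, and of a dense capillary bed with resident macrophages. Inbred strains are homozygous, so that every animal of a strain carries the same alleles, and a gene for which a single strain lies apart from all others is a common starting point in the search for regulatory variants. Array signal is hybridisation to short probes, so a sequence difference between strains under a probe can change the signal without a change in RNA level. That possibility was not tested, and further probe sets of a gene are described for the members with the widest gaps and for other genes on which a result turns.

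Each of the 18 lung arrays was nearest to an array of its own strain over genes with a mean log2 signal of at least 6, after centring each gene. The mean signal of 9 alveolar type 2 genes was 12.59 to 13.40 on the log2 scale in lung and at most 7.76 in the 90 arrays of other tissues. Array medians in lung were 6.80 to 6.83, and the 3 AKR/J arrays correlated with each other at 0.9959 to 0.9971. C3HeB/FeJ array 3 stood apart, with mean signals of 9.69 for skeletal muscle markers (6.03 in the next highest array), 10.15 for brown fat markers (7.10) and 10.66 for squamous epithelial markers (5.81). Without this array the genes apart numbered 120 higher and 87 lower. The lung is a mixture of cells, so that more cells of a type and more RNA per cell cannot be told apart in any value below.

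Against the mean of the other strains, 1295 genes (7.12% of all tested) were higher and 924 (5.08%) were lower in AKR/J lung. The genes apart from all 5 strains were 0.621% of all genes on the higher side and 0.418% on the lower side. As these tests chose the members, their p-values are given as descriptions only. Among the members, 112 of 113 higher genes and 75 of 76 lower genes had all 3 AKR/J arrays beyond all 15 other lung arrays, and the exceptions were Rnase1 and Gsg1l. Over all genes, such arrays without overlap were found for 2.17% on the higher side and 1.15% on the lower side. The pairwise tests that chose the members used the same arrays, so the lack of overlap among members follows largely from the choice. The gap, meaning the distance from the AKR/J mean to the nearest other strain mean, was at least 1 log2 unit for 7 higher and 10 lower genes and under 0.5 for 74 and 36. The median gap was 0.43 for higher and 0.51 for lower genes, beside a median residual SD of 0.118 over all genes. Just inside the threshold lay Antxr2, Bub1 and Prps1, with largest pairwise adjusted p-values of 0.0493, 0.0494 and 0.0496 by limma. Just outside it lay Cdipt at 0.0501 and Adhfe1 and Col17a1, both at 0.0505.

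**Figure D1:**
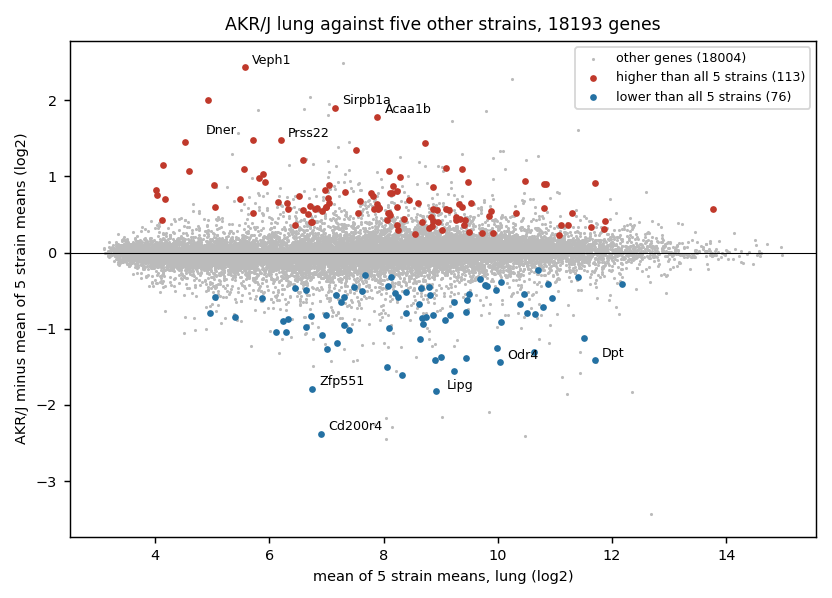
Each point is a gene, with the mean of the 5 other strain means in lung on the x axis and the AKR/J difference from it on the y axis, both in log2 units. The 113 genes above and the 76 below all 5 strains are coloured, and Veph1 and Cd200r4 have the widest gaps in each direction.

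The widest gap belonged to Veph1, which encodes a protein with a pleckstrin homology domain. Its signal in AKR/J arrays 1, 2 and 3 was 8.14, 7.77 and 8.09, and in the 15 other lungs it was 4.95 at the lowest, 5.57 at the median and 6.18 at the highest. No AKR/J array overlapped with another strain, and the difference from the mean of the others was 2.43 ± 0.14 (log2, SE), or 5.39-fold. Prss22, a secreted serine protease of airway epithelium, read 7.94, 7.86 and 7.21 in AKR/J and 5.91 to 6.45 elsewhere (median 6.22), a difference of 1.48 ± 0.12. AKR/J array 3 was the lowest of its group for Prss22 and still lay above every other lung.

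Several of the higher genes encode receptors or secreted and surface proteins. Dner, a transmembrane ligand with EGF repeats that acts in the Notch pathway, read 7.13, 7.20 and 7.25 in AKR/J and 5.19 to 6.09 elsewhere (median 5.82). A further Dner probe set gave a larger difference, 1.80 beside 1.48. Nrn1, or neuritin, a membrane-anchored protein first studied in neurons, read 10.21, 10.20 and 10.08 in AKR/J. The other lungs read 7.42 to 9.25 for Nrn1 (median 9.01), with 129S2 the lowest strain at a mean of 7.62. Sirpb1a, an activating receptor of myeloid cells, read 9.19, 8.97 and 9.0 in AKR/J against 5.51 to 8.41 (median 6.99). The other strains also differed among themselves for Sirpb1a, from a mean of 5.94 in DBA2/J to 8.14 in C57BL/6J, which was the nearest to AKR/J. Ephb1, a receptor tyrosine kinase for ephrins, read 6.86, 6.62 and 6.92 in AKR/J and 5.66 to 6.05 elsewhere (median 5.82). Rnase1, a secreted ribonuclease, read 6.74, 6.51 and 6.72 in AKR/J. The other 14 lungs of that gene stayed at or below 5.92, but C3HeB/FeJ array 3 read 6.60, above AKR/J array 2.

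Among enzymes and signalling proteins, Acaa1b had the largest difference. It encodes a peroxisomal thiolase of fatty acid oxidation and read 9.82, 9.66 and 9.56 in AKR/J against 7.17 to 8.94 elsewhere (median 7.78), a difference of 1.78 ± 0.16. Grb2, the adaptor that links receptor tyrosine kinases to Ras, showed a smaller but tight difference. It read 10.37, 10.43 and 10.42 in AKR/J against 9.28 to 9.63 (median 9.48), and its further probe set differed by 0.81 beside 0.93. Senp1, a protease that removes SUMO from proteins, read 9.16, 8.96 and 9.02 in AKR/J against 7.74 to 8.42. Its probe sets disagreed, as a further one was lower in AKR/J by limma (difference -0.39, adjusted p = 4.9e-04) and another did not pass. Apob, the structural protein of lipoproteins, read 5.51, 5.50 and 6.00 against 4.19 to 4.94, and its further probe set differed by -0.09, which did not pass (adjusted p = 0.541). Map3k7cl read 5.21, 5.09 and 5.61 against 3.78 to 4.31. The signal in the other lungs was low for both, with strain means of 4.5 to 4.7 for Apob and 4.0 to 4.2 for Map3k7cl. Pomt1, Swi5 and Uck1, which completed the 15 widest gaps, are described below with their chromosomal neighbours.

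The widest gap on the lower side belonged to Cd200r4, a member of the CD200 receptor family of myeloid cells and basophils. It read 4.47, 4.44 and 4.66 in AKR/J and 5.72 to 7.35 in the other lungs (median 7.03). The AKR/J signal was 5.21-fold lower, a log2 difference of -2.38 ± 0.19, and the lowest of the other arrays was a DBA2/J lung. Iigp1, an interferon-inducible GTPase that acts against intracellular parasites, read 8.70, 8.71 and 8.79 against 9.50 to 10.61 (median 10.00). A further Iigp1 probe set was lower as well (-0.89). Slfn1, of the Schlafen family of immune cells, read 5.68, 5.84 and 5.71 against 6.55 to 7.38. Its further probe set had a low signal (mean 3.82 in AKR/J) and did not differ measurably by limma (-0.003, adjusted p = 0.987). Capg, which caps actin filaments in macrophages and other cells, read 8.02, 7.97 and 8.21 against 8.65 to 9.91 (median 9.48). Its further probe set was lower by limma with a difference of -0.35 (adjusted p = 0.016). That probe set had a low signal in all strains, with means of 3.87 in AKR/J and 4.00 to 4.33 elsewhere, and adds little.

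Genes of the extracellular matrix and of lipid and retinoid metabolism were among the lower ones. Dpt encodes dermatopontin, a matrix protein of fibroblasts, and read 10.27, 10.25 and 10.33 in AKR/J. The 15 other lungs read 11.29 to 12.41 for Dpt (median 11.59), with DBA2/J highest at a mean of 12.36 and A/J nearest at 11.31. Lipg, the endothelial lipase that acts on phospholipids of high-density lipoprotein, read 7.66, 7.51 and 7.84 against 8.88 to 9.78 (median 9.23). Of its further probe sets, neither passed, with differences of 0.19 and 0.07 on the higher side. Adh1, an alcohol and retinol dehydrogenase, read 10.29, 10.44 and 10.42 against 11.22 to 11.82 (median 11.52), a difference of -1.13 ± 0.07. Mtr, the vitamin B12-dependent methionine synthase, read 6.06, 6.60 and 6.42 against 7.11 to 7.60, and its further probe set was also lower (-0.47).

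The remaining lower genes with wide gaps act in RNA metabolism, in protein trafficking or in transcription, or have no role that is well described. Zfp551, a zinc finger protein, read 4.82, 5.06 and 5.0 in AKR/J and 6.53 to 7.07 elsewhere (median 6.74), and the 5 other strain means lay within 6.66 to 6.82 of each other. Usp39, a part of the splicing machinery, read 9.44, 9.30 and 9.21 against 10.41 to 10.79, and its further probe set did not pass (-0.18, adjusted p = 0.158). Odr4, named for a worm protein that helps odorant receptors reach the membrane, read 8.51, 8.53 and 8.75 against 9.86 to 10.18, and its further probe set did not pass either (0.12, adjusted p = 0.476). Zcchc9, a zinc knuckle protein, read 7.76, 7.54 and 7.61 against 8.69 to 9.22. Gpbp1l1 read 7.53, 7.50 and 7.45 against 8.37 to 9.52, with A/J and DBA2/J the nearest strains at means of 8.46 and 8.44. The transcripts 9930104L06Rik and 1110019D14Rik differed by -1.19 and -1.04. For all of these genes the AKR/J arrays lay below all 15 others.

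**Figure D2:**
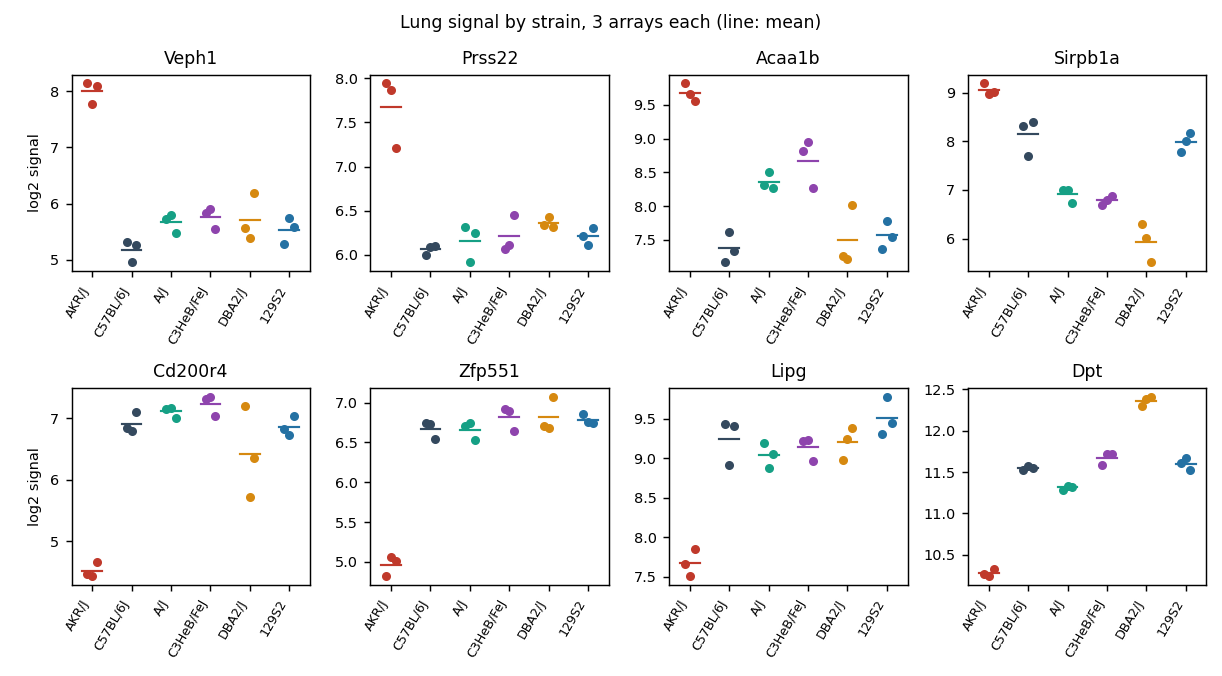
Log2 signal of each lung array (points) and strain means (lines) for 4 higher and 4 lower genes, with 3 arrays for each of 6 strains. The AKR/J arrays lie beyond every other array in each panel, while the spread among the other strains is small for Zfp551 and wide for Sirpb1a.

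Probe sets that did not represent a gene gave a readout the choice had not used, though from the same arrays. Of 58 higher members with further probe sets, 38 had at least 1 that was higher as well and 6 at least 1 that was lower. Of the 100 such probe sets in all, 48 were higher and 6 lower, while 7.17% of all such probe sets on the array were higher and 4.75% were lower. For the lower members, 40 of 66 further probe sets were lower and 3 were higher, in 27 and 3 of 39 genes. The other 55 higher and 37 lower members had a single probe set, so that no such comparison could be made for Veph1, Prss22, Acaa1b, Sirpb1a, Cd200r4, Zfp551, Dpt and Adh1, among others.

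The same contrast in the other tissues did not choose the members, although the AKR/J animals and the probe sets were the same. Of the 113 higher genes, brain showed 14 that were also higher (1.4% of all genes were), heart 26 (1.9%), kidney 45 (8.48%), liver 24 (4.63%) and testis 30 (13.1%). Of the 76 lower genes, brain showed 27 that were also lower (1.55% of all genes were), heart 30 (2%), kidney 40 (5.45%), liver 29 (4.5%) and testis 32 (11.1%). Opposite differences passed for 1, 3, 4, 1 and 9 of the higher genes and for 1, 0, 4, 4 and 9 of the lower genes, in the same order of tissues. In brain, array AKR/J 2 and array 129S2 2 resembled each other more than their own strains, and without both the counts became 24 higher and 41 lower, beside 3.06% and 3.68% of all genes. Among the higher members 49, and among the lower ones 22, passed in the same direction in no other tissue. Those that passed in all 5 numbered 7 and 8. The counts over several tissues and the brain values of single genes below use all brain arrays. They were not redone without AKR/J 2 and 129S2 2, whose removal raised the brain counts.

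The members that were higher in all 6 tissues were Pomt1, Uck1, Swi5, Senp1, Hspe1, Rint1 and Mrps10. Odr4, Zfp551, Zcchc9, 9930104L06Rik, 1110019D14Rik, Ggps1, Ndufaf1 and Bod1 were lower in all 6. Each gene was read by the same probe set in every tissue, so a sequence difference under a probe could recur in all of them. This was not tested. In lung, the further probe sets of Senp1 and Odr4 did not show the difference, as given above. Odr4 differed by -1.0 (brain), -1.96 (heart), -1.45 (kidney), -1.23 (liver) and -1.48 (testis), beside -1.44 in lung. Map3k7cl was also higher in heart (1.42), testis (0.63) and kidney (3.63), where its difference was larger than in lung. Apob was higher in kidney by 2.48 and did not pass in brain, heart, liver or testis. Grb2 was higher in heart (1.17) and did not pass in brain, kidney, liver or testis.

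The lung difference was set against the mean of the AKR/J differences in the other 5 tissues in a limma fit of the arrays of all 6 tissues with the animal as a random block. The test uses the lung contrast that chose the members, so a larger difference in lung is favoured by the choice. Over all genes, 5.11% passed with a difference higher in lung and 4.75% with one lower. Among members, 94 of 113 higher and 58 of 76 lower genes passed with a larger difference in lung, and none with a smaller one. The difference of differences was 2.38 ± 0.10 for Veph1, whose differences elsewhere lay within -0.13 to 0.19, and -2.31 ± 0.10 for Cd200r4, within -0.16 to 0.04. Of the 30 genes with the widest gaps 24 passed, and it was also beyond 1 log2 unit for Sirpb1a (1.89), Acaa1b (1.88), Nrn1 (1.51), Lipg (-1.49), Dpt (-1.47), Dner (1.31), Slfn1 (-1.20), Adh1 (-1.15) and Rnase1 (1.10). Pomt1, Map3k7cl, Swi5, Uck1, Odr4 and Mtr did not pass. Adh1 was higher in AKR/J testis by 0.38 while lower in lung.

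**Figure D3:**
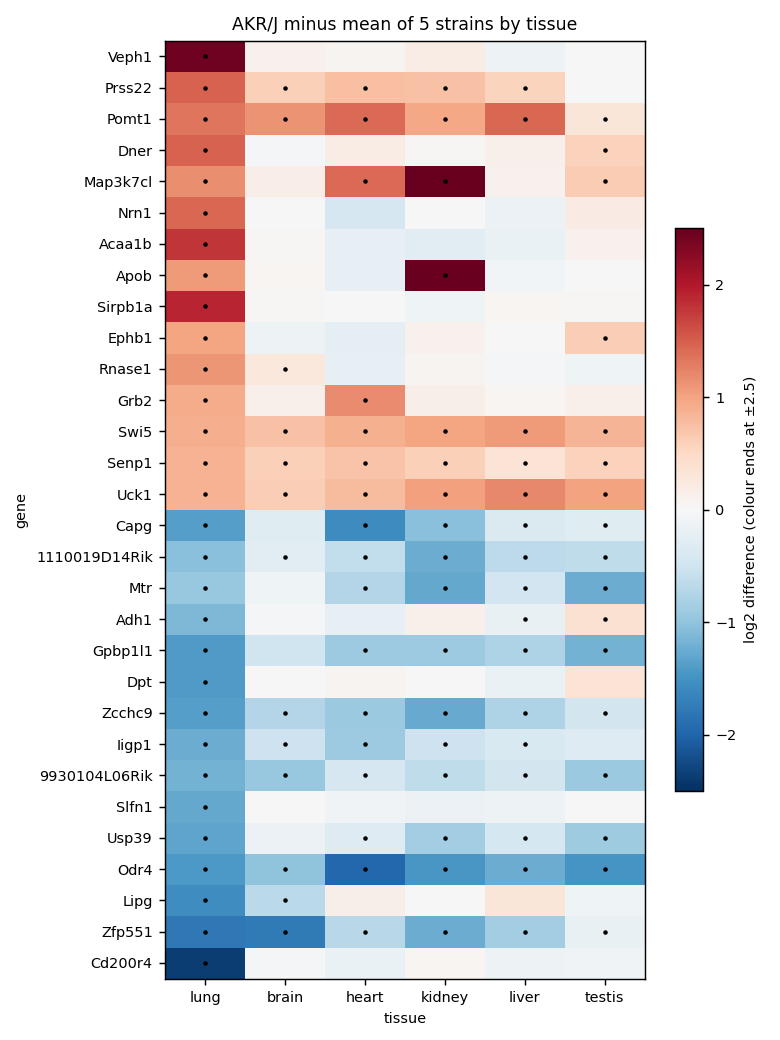
AKR/J minus the mean of the 5 other strain means (colour, log2 units, ending at ±2.5) for the 15 higher and 15 lower genes with the widest gaps in lung, in 6 tissues, with a dot where the difference passed by limma. Pomt1, Swi5, Senp1 and Uck1 are higher, and Odr4 and Zfp551 lower, in every column, while Veph1, Sirpb1a, Cd200r4 and Dpt carry a dot in lung alone.

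Some members lay next to each other. Of 18145 measured genes placed in chromosomal order, 7 adjacent pairs were both members in the same direction and 2 in opposite directions. Pomt1, which transfers mannose to dystroglycan, Uck1, a uridine-cytidine kinase, and Swi5, which acts in homologous recombination, follow each other in this order and were all higher. Pomt1 read 8.85, 8.97 and 8.78 in AKR/J against 7.33 to 7.70 in the other lungs, Uck1 read 9.76, 9.73 and 9.69 against 8.70 to 9.22, and Swi5 read 11.50, 12.07 and 11.67 against 10.49 to 11.29. Their differences were 1.34 ± 0.06, 0.86 ± 0.07 and 0.90 ± 0.15. None of the 6 measured genes on either side of them passed, with differences between -0.17 (Aif1l) and 0.19 (Lcn2).

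Gpr137b-ps, Gpr137b and Nid1 formed a run of lower genes. Gpr137b is a lysosomal membrane protein with a pseudogene copy beside it, so that their signals may not be separate measurements, and Nid1 encodes nidogen, which ties laminin to collagen IV in basement membranes. Gpr137b-ps read 9.05, 9.31 and 9.07 against 9.87 to 10.25, Gpr137b read 9.74, 9.83 and 9.59 against 10.27 to 10.69, and Nid1 read 9.72, 9.81 and 9.99 against 10.32 to 10.98. All 3 further probe sets of Gpr137b and both of Nid1 were lower as well, though 1 of Gpr137b had a low signal (mean 3.88 in AKR/J). Ggps1, the geranylgeranyl diphosphate synthase, lay 5 genes beyond Nid1 and was a member too, at -0.88 ± 0.08. Around this run Ero1b (-0.22) and Tbce (-0.23) were lower and B3galnt2 (0.22) was higher, none of them a member. Gpr137b was higher in testis (0.64), while Nid1 was lower there (-0.55).

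The other adjacent pairs were Acaa2 with Lipg and Zfp551 with Zfp606, all lower, and 5730455P16Rik with Zfp207, both higher. Zfp207 and Zfp606 each had a further probe set that passed in the opposite direction, at -0.90 and 0.57. Sftpb lay between Atoh8 and Usp39, both of which were lower while Sftpb was higher.

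**Figure D4:**
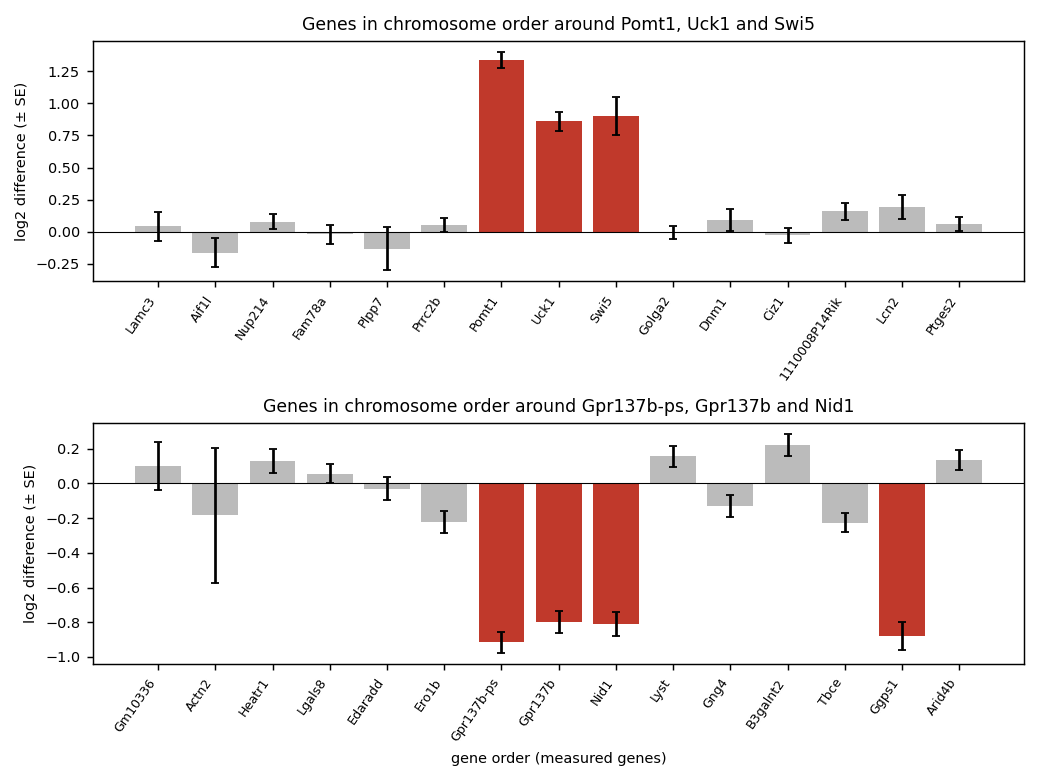
AKR/J minus the mean of the 5 other strain means in lung (bars, log2 units, with the SE) for genes in chromosomal order around 2 runs of members, which are coloured. The bars fall back to near 0 on both sides of Pomt1, Uck1 and Swi5, and Ggps1 is the other coloured bar beyond Nid1.

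Cholesterol synthesis turns acetyl-CoA through mevalonate and squalene into cholesterol, and its genes are switched on together by the SREBP2 factor when sterols are low. The type 2 cell uses cholesterol for surfactant. Of 17 measured genes of this pathway, 13 were higher and 1 was lower in AKR/J lung, with a median difference of 0.37, beside -0.006 over all genes. Of these, 3 were members. Over all genes 7.12% were higher and 5.08% lower in AKR/J lung, and the count of every list below is to be read beside these shares. Cyp51, the lanosterol demethylase, read 8.96, 9.09 and 9.07 in AKR/J against 7.80 to 8.63 in the other lungs (median 8.30). Idi1, the isopentenyl diphosphate isomerase, read 10.40, 10.40 and 10.49 against 9.49 to 10.15 (median 9.95). Mvd, the mevalonate diphosphate decarboxylase, read 7.97, 8.07 and 8.14 against 7.35 to 7.72 (median 7.54). No AKR/J array overlapped with another strain for any of them. Further probe sets were higher for Idi1 (0.29) and Mvd (0.44), and for Cyp51 1 was higher (0.79) and the other did not pass (0.16). The mean signal of the list was 9.38 to 9.43 in AKR/J arrays and 8.83 to 9.26 in the others.

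The exception was Sc5d, which introduces a double bond late in the pathway. It read 8.86, 8.96 and 8.87 in AKR/J against 8.72 to 10.51, a difference of -0.82 ± 0.10, and it was lower in all 5 other tissues, from -0.49 in testis to -1.08 in kidney. The members did not follow the same course elsewhere. Idi1 was lower in AKR/J kidney (-1.58) and testis (-0.37), Mvd did not pass in any other tissue, and Cyp51 was higher in brain (0.29) and testis (0.35). Type 2 markers moved with this list: 4 of 9 were higher, none was lower, and their mean signal was 13.35 to 13.40 in AKR/J against 12.59 to 13.28. Their part in the result was not tested. Without AKR/J array 1, 2 or 3 the number of cholesterol genes that were higher was 9, 9 and 6, and it was 13 without C3HeB/FeJ array 3.

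The promoters of the 3 members are shown because SREBP2 works together with NF-Y, which binds CCAAT. They come from RefSeq on build GRCm38.p6 and run from 250 bases before to 50 bases after the gene start. Cyp51 lies at chr5:4104648-4104947 on the minus strand, Idi1 at chr13:8885356-8885655 on the plus strand and Mvd at chr8:122443373-122443672 on the minus strand. Capitals mark CCAAT and a sterol regulatory element-like TCACNNCA on either strand, and the 2 motifs did not overlap.
Cyp51: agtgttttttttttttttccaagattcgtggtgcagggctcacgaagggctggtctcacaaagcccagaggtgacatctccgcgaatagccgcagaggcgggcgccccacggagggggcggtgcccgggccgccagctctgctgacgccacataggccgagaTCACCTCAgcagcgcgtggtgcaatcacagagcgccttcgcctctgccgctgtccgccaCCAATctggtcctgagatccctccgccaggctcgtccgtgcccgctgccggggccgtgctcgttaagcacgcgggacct
Idi1: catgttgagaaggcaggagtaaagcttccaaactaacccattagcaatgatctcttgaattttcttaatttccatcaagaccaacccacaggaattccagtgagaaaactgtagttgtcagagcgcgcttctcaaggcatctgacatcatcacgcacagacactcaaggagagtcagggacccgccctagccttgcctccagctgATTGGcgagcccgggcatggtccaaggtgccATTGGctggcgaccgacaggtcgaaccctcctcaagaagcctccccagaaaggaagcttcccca
Mvd: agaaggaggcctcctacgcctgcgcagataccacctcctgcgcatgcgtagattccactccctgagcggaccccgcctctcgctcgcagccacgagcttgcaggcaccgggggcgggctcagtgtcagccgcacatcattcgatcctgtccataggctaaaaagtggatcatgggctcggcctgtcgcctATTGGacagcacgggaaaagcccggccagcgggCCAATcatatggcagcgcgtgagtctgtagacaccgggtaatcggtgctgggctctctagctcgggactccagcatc

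CCAAT began 29 bases before the start in Cyp51, 45 and 14 bases before it in Idi1 and 60 and 27 bases before it in Mvd. The sterol element-like motif was found in Cyp51, 88 bases before the start. Over the pathway, 13 of the 14 measured genes with a promoter in the table held CCAAT and 7 held TCACNNCA. Of all 32851 promoters of this length, 37.4% held the first and 13.8% the second. These matches are descriptions of sequence and say nothing of binding in these lungs.

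Of 12 measured lipid handling genes, 4 were higher and 2 lower. Abcg1, which exports cholesterol from macrophages and type 2 cells, was a member and read 11.25, 11.36 and 11.55 in AKR/J against 10.33 to 11.17 (median 10.87), with no overlap, and its further probe set was higher as well (0.65). Plin2, Scarb1 and Nceh1 were higher by 0.39, 0.29 and 0.26, and Apoe and Abca1 lower by limma, with differences of -0.38 and -0.25. None of 15 fatty acid synthesis genes passed in either direction by limma, while 3 were higher at an unadjusted p under 0.05.

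Heat-shock chaperones fold proteins and are induced by the factor HSF1 under heat and other stress. Of 12 measured, 9 were higher and none lower by limma (10 and 0 at an unadjusted p under 0.05), with a median difference of 0.75. Hspe1, the mitochondrial chaperonin that works with Hspd1, was the member. It read 11.76, 11.37 and 11.97 in AKR/J against 10.46 to 11.23 elsewhere (median 10.78), a difference of 0.89 ± 0.11, and its further probe set differed by 0.95. Hspe1 was higher in all 5 other tissues, from 0.35 in brain and kidney to 0.69 in testis. Hspd1 was higher in lung by 0.50 and did not pass in any other tissue.

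The larger differences in this list were less even. Hspa1a, the inducible Hsp70, read 12.34, 10.17 and 12.41 in AKR/J against 8.05 to 11.68 (median 10.10). AKR/J array 2 lay within the other strains and arrays 1 and 3 above them. The difference was 1.85 ± 0.45, and Hspa1b (1.61 ± 0.43) and Hsph1 (1.33 ± 0.36) were also lowest in AKR/J array 2. Hspa1a was also higher in brain (1.04), heart (2.92), kidney (2.56), liver (2.06) and testis (0.26). Without AKR/J array 1 or 3, 3 and 2 of the 12 genes were higher, while 10 were without array 2 and 10 without C3HeB/FeJ array 3.

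The promoters of Hspe1 (chr1:55087898-55088197, plus strand) and Hspa1a (chr17:34972107-34972406, minus strand) are shown because HSF1 binds heat-shock elements, inverted repeats of GAA. They are from the same RefSeq table and window, and capitals mark GAANNTTC and TTCNNGAA, each its own reverse complement.
Hspe1: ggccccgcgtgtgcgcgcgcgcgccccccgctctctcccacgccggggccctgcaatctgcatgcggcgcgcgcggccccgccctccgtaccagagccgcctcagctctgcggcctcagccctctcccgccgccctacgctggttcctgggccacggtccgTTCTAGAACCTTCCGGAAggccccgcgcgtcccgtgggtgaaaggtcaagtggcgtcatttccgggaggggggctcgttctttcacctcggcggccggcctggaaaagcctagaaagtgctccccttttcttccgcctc
Hspa1a: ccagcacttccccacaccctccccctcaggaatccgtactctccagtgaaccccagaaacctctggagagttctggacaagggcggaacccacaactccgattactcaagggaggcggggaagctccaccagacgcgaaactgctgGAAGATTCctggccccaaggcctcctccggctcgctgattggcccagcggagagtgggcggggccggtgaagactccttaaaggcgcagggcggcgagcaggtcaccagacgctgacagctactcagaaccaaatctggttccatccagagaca

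In Hspe1 the motifs TTCNNGAA, GAANNTTC and TTCNNGAA overlapped by 3 bases each and began 89, 84 and 79 bases before the start. In Hspa1a GAANNTTC began 104 bases before it. Of 10 measured chaperone genes with a promoter in the table, 8 held GAANNTTC and 2 held TTCNNGAA. These 2, Hsph1 and Hspe1, held both. Of all promoters, 7.86% held the first, 8.52% the second and 1.32% both.

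**Figure D5:**
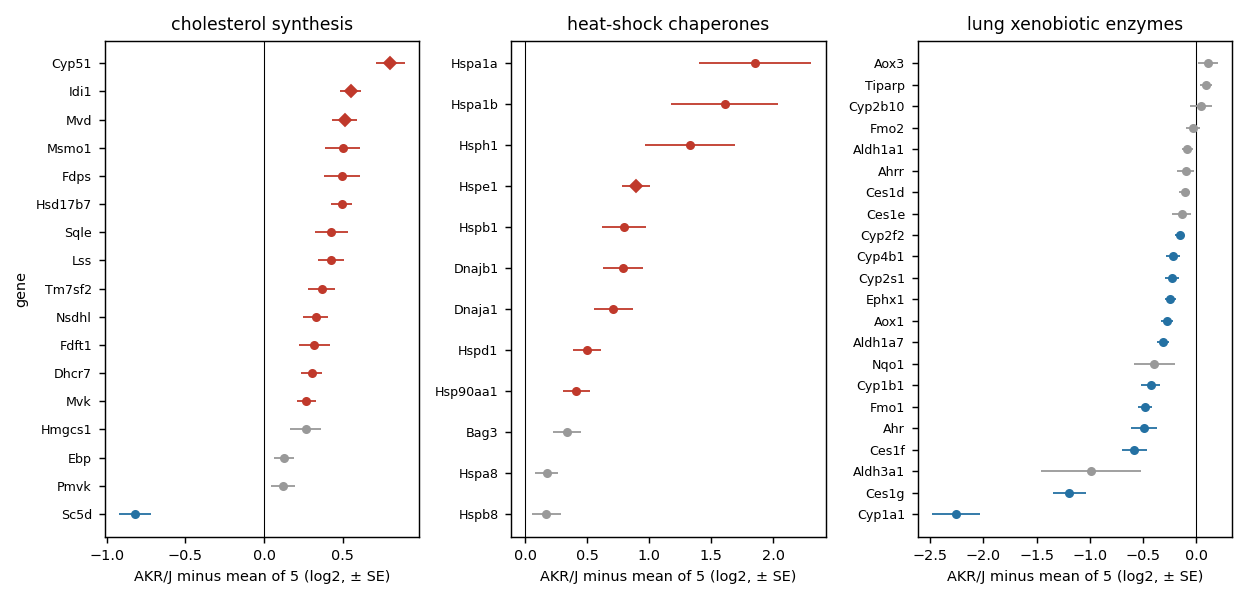
AKR/J minus the mean of the 5 other strain means in lung (log2 units, bars are the SE) for the measured genes of 3 lists, red where higher and blue where lower by limma, grey where the test was not passed, and diamonds for genes apart from all 5 strains. Of the cholesterol genes 13 of 17 and of the chaperones 9 of 12 are red, and 12 of 22 xenobiotic enzymes are blue.

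Enzymes that handle foreign compounds are made in club and endothelial cells of the lung. Of 22 measured, 12 were lower and none was higher by limma (12 and 0 at an unadjusted p under 0.05), and none was a member. The mean signal of the list was 9.79 to 9.94 in AKR/J and 10.14 to 10.43 in the other strains, so that the groups did not overlap. Cyp1a1, the classical target of the aryl hydrocarbon receptor, read 5.60, 5.62 and 5.48 in AKR/J, with DBA2/J as low (mean 5.23) and C57BL/6J and 129S2 high (10.06 and 9.66). Its difference from the mean of the others, -2.26 ± 0.23, thus divided the strains rather than setting AKR/J apart. Ces1g, a carboxylesterase, differed by -1.19, but another strain was as low (mean 6.57 beside 6.62 in AKR/J). Ahr, the aryl hydrocarbon receptor itself, differed by -0.49. Club cell markers were lower for 1 of 6 measured genes, Cyp2f2 at -0.15, which did not pass without AKR/J array 1 or 3, and endothelial markers for 1 of 9. Glutathione S-transferases, which couple such compounds to glutathione, were lower for 4 of 21 genes, with Gsta2 at -0.57 and Gstk1 at -0.26. Gsta2 no longer passed in 14 of the alternatives, among them leaving out any 1 of the AKR/J arrays (adjusted p up to 0.152 by limma). Without AKR/J array 3 the number of xenobiotic enzymes that were lower was 7, and it was 13 without C3HeB/FeJ array 3.

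Of the type 2 markers, Sftpb was a member. It encodes surfactant protein B, which is needed for the surface film, and read 14.35, 14.30 and 14.37 in AKR/J against 13.17 to 13.99 (median 13.86), a difference of 0.57 ± 0.08. The genes of the other surfactant proteins differed less, Sftpa1 by 0.25, which passed, and Sftpc and Sftpd by 0.08 each, which did not. Type 1 markers were higher for 4 of 7 genes, none a member, with Akap5 at 0.78 and Aqp5 at 0.28, and Aqp5 no longer passed without any 1 of the AKR/J arrays. Akap5 has a brighter probe set in lung, which differed by -0.03 and did not pass. Without AKR/J array 1, 2 or 3, 2 of the 9 type 2 markers were higher, and 6 without C3HeB/FeJ array 3, which had the lowest type 2 signal of all lungs.

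Among collagens, Col4a3 stood apart. It encodes a chain of the basement membrane collagen of alveoli and glomeruli and read 11.42, 11.50 and 11.35 in AKR/J against 10.31 to 10.78 (median 10.45), a difference of 0.94 ± 0.07, with 0.52 for its further probe set. Col4a4, whose chain assembles with it, was higher by 0.34, and Col5a2 by 0.33. Col8a1 was lower at -0.51, and the other 18 of 22 collagens did not pass. Col4a3 was also higher in heart (0.50) and kidney (0.54).

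Markers of immune cells are read against the 7.12% of all genes that were higher and the 5.08% that were lower in AKR/J lung. Plasma cell markers were lower for 4 of 7 genes, with Jchain, the joining chain of secreted antibodies, at 8.36, 7.81 and 7.05 in AKR/J against 6.57 to 13.56 elsewhere. Jchain ranged from a mean of 6.67 in DBA2/J to 13.42 in 129S2, so that AKR/J did not lie apart. Pou2af1, a coactivator of B cells, differed by -1.21. Macrophage markers were higher for 4 of 10 genes and lower for 0, with Mrc1 at 0.70 and Cd68 at 0.56. At an unadjusted p under 0.05 by limma, 4 were higher and 2 lower, and the median difference was 0.12. The mean signal of the list was 9.41 to 9.46 in AKR/J, within the 8.73 to 9.69 of the other lungs. Cd68 was level with C3HeB/FeJ (mean 9.78 beside 9.79 in AKR/J) and no longer passed without any 1 of the AKR/J arrays. The other lists held 1 or 2 passing genes each, from which nothing is read about the cells. Neutrophil markers were lower for 1 of 10 (Ltf, -1.14), T cell markers higher for 1 of 12 (Cd2, 0.42), B cell markers lower for 1 of 9 (Blk, -0.63), and mast cell and basophil markers lower for 2 of 7 (Ms4a2, -0.53; Cma1, -0.41). Natural killer markers were higher for Gzmb (0.46) and lower for Klra8 (-0.52) out of 9, and Klra8 was high in C57BL/6J alone (mean 6.19). Ltf and Gzmb did not pass without AKR/J array 1 or 3, Cma1 without array 2 or 3, Blk without array 3 and Klra8 without array 1, and a further Ms4a2 probe set did not pass (-0.14). None of 6 thymocyte markers passed by limma, and 0 did so at an unadjusted p under 0.05.

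The lists of interferon-inducible genes did not share a direction. Of 27 interferon-stimulated genes 5 were higher and none was lower by limma, beside 7.12% and 5.08% of all genes. At an unadjusted p under 0.05, 7 were higher and 2 lower. Ifi27l2a led the higher ones (1.21 ± 0.19). Xaf1 was higher by 1.07, with AKR/J (mean 10.11) level with C57BL/6J, A/J and C3HeB/FeJ (10.15 to 10.20). Its further probe set was lower (-2.07), and the mean of both was lower in AKR/J (-0.50). Iigp1 was the only member among 10 immunity-related GTPases and guanylate-binding proteins, of which 3 were lower and 1 higher. The PYHIN genes, sensors of foreign DNA, were higher for 2 and lower for 3 of 8. Ifi202b read 9.07, 9.05 and 8.85 in AKR/J and was lowest in C57BL/6J (mean 4.47), and Mndal read 5.78, 5.79 and 6.05, as low as A/J (5.79) and DBA2/J (5.71), with a further probe set that was lower by limma too (-4.13).

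Of 14 measured MHC class I presentation genes 6 were lower and 1 higher, none a member. H2-D1 read 10.02, 9.28 and 8.45 in AKR/J and 9.06 on average in C3HeB/FeJ, against 13.51 to 13.63 in the other strains. AKR/J and C3H strains are known to share the k haplotype of this locus. Of the 8 further H2-D1 probe sets, 6 were lower and 1 was higher by 4.56, so that the probe sets disagreed about direction. H2-K1 followed the same split, with AKR/J at 10.48, 10.59 and 10.51 and C3HeB/FeJ and A/J at means of 10.40 and 10.91, and 2 of its 3 further probe sets were lower. Of 12 class II genes, 2 were lower (H2-Eb1, -0.55, and H2-Ab1, -0.46) and 1 was higher.

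Of 14 genes of retrovirus entry and restriction, 3 were higher and 1 lower. Slc7a1, the arginine transporter that ecotropic murine leukaemia virus uses as its receptor, was a member. It read 9.65, 9.66 and 9.79 in AKR/J against 8.88 to 9.31 (median 9.20), a difference of 0.55 ± 0.05, while in heart it was lower (-0.51). Of its further probe sets, 1 was higher (0.49) and the other did not pass (0.10). Fv1, a restriction factor with strain-specific alleles, did not pass (-0.09 ± 0.09, adjusted p = 0.631 by limma). Of the other genes with alleles known in AKR/J, Thy1, a T cell surface antigen, differed by -0.24 (adjusted p = 0.156 by limma), and Glo1 by -0.08 (adjusted p = 0.655). For Fv1, Thy1 and Glo1 AKR/J lay between other strains that differed among themselves, so the difference from their mean hides this spread. The other strain means ran from 5.95 to 7.27 for Fv1 (6.52 in AKR/J), 7.33 to 8.69 for Thy1 (7.65) and 10.64 to 12.32 for Glo1 (11.64). Hc, complement component C5, differed by -0.60 ± 0.10 and passed, but A/J was lower still (mean 10.71). The Soat1 gene, also known for an AKR/J allele, was not analysed here. Of 18 complement genes, C6 was higher (0.44) beside Hc, and did not pass without AKR/J array 1 or 3. Another strain was higher still for C6 (mean 10.06 beside 9.95 in AKR/J).

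None of the passing genes in the remaining lists was a member. Their counts stand beside 7.12% of all genes higher and 5.08% lower, and nothing is read about a list from 1 or 2 passing genes. Chemokines were higher for 4 and lower for 7 of 33, with Ppbp, a platelet chemokine, at 7.92, 9.34 and 6.93 in AKR/J against 7.60 to 12.78, and Ccl27a higher by 1.16. Clock genes were higher for 2 of 17 (Per3, 1.00; Per2, 0.60). Neither further Per2 probe set passed, and the Per2 call ended in 17 alternatives, among them the robust prior, quantile normalization and leaving out any 1 of the AKR/J arrays. Of 5 further Per3 probe sets, 2 were higher, and the brightest in lung differed by 0.38 and did not pass. Immediate-early genes, which respond within minutes to handling and dissection, were lower for 2 of 17 (Fos, -1.30 ± 0.34; Zfp36, -0.68 ± 0.16), and Fos did not pass without AKR/J array 2 or 3 nor Zfp36 without array 3. Of 12 serine protease inhibitors, 1 was higher and 1 lower. Serpina1b was higher by 1.81, but DBA2/J was higher still (mean 11.58). Serpina3n was lower at -0.83, with a mean of 9.30 in AKR/J and of 9.63 to 11.12 in the other strains. Cardiomyocyte markers, which the heart muscle around mouse pulmonary veins expresses, were higher for 1 of 11, Myl2 at 7.02, 7.15 and 5.76, with C3HeB/FeJ as high (mean 7.12). Smooth muscle (Acta2, -0.39), fibroblast (Tcf21, -0.26), endothelial (Ednrb, -0.23) and mesothelial markers (Upk1b, -0.48; Upk3b, -0.42) were lower for 1 of 7, 1 of 9, 1 of 9 and 2 of 5 genes. Tcf21 and Ednrb did not pass without AKR/J array 1 or 3, nor Upk1b and Upk3b without array 3. The Tcf21 call ended in 9 alternatives, 8 of them the loss of 1 array, also of arrays of C57BL/6J, A/J, C3HeB/FeJ and DBA2/J. None of the ciliated cell, skeletal muscle, adipocyte, brown fat, erythroid, squamous, thyroid or glucocorticoid-responsive genes passed by limma. At an unadjusted p under 0.05, 1 erythroid gene was lower and 0 of the others differed.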

How the data were processed

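Total RNA was hybridised to Affymetrix GeneChip arrays, per the labels' protocols, which speak of pools although titles name single animals. The authors deposited log2 values made with RMA, per the submitters' processing notes. The version, and whether tissues were normalized together, are not given in the sources used here, so contrasts were taken within tissues. Strain, tissue and number came from the titles. Of 45101 probe sets, 64 controls were left out, as were 932 that list more than 1 gene and 9160 that list none. Of the 34945 single-gene probe sets, 34741 had a gene ID found in the RefSeq table of GRCm38.p6. Each of 18193 genes took its probe set with the highest mean over all arrays. Tests used R 4.3.3 and limma 3.58.1 (1 mean per strain, default prior), with Benjamini-Hochberg adjustment over all genes and a threshold of 0.05, and were tested on simulated data. The animal block had a consensus correlation of 0.0184, estimated on 4000 genes. With 3 arrays a group, the number of arrays limits the precision.

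Genes named are the 15 widest gaps in each direction, up to 4 members of each gene list (or 2 passing genes where none was a member), all measured genes with alleles known in AKR/J, and adjacent members. List levels are means of log2 signal over members. Other genes named from lists or elsewhere were chosen after their values were seen. Members and lists were chosen with earlier results of these data known. Alternatives were other priors, array weights, normalization, a filter on dim genes, other choices of probe set, the replicate number as a block and leaving out each array.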

Additional observations from a re-analysis of the deposited data

Results flagged for a closer look

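The AKR/J difference in lung departed from the mean of its differences in the other 5 tissues, by the limma test of the difference itself, for 24 of the 30 genes with the widest gaps. The lung contrast that chose these genes is part of this test. Among genes higher in AKR/J lung the difference of differences was 2.38 for Veph1, 1.89 for Sirpb1a, 1.88 for Acaa1b, 1.51 for Nrn1, 1.31 for Dner, 1.10 for Rnase1, 0.95 for Prss22, 0.91 for Ephb1, 0.62 for Apob, 0.61 for Grb2 and 0.31 for Senp1 on the log2 scale. Among the lower genes it was -2.31 for Cd200r4, -1.49 for Lipg, -1.47 for Dpt, -1.20 for Slfn1, -1.15 for Adh1, -0.84 for Zfp551, -0.77 for Usp39, -0.72 for Iigp1, -0.66 for Capg, -0.56 for Gpbp1l1, -0.54 for Zcchc9, -0.51 for 9930104L06Rik and -0.36 for 1110019D14Rik.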

How the results depend on the processing

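Leaving out each lung array in turn gave 735 to 1437 genes higher and 526 to 1145 lower than the mean of the other strains, and 71 to 121 genes apart on the higher and 59 to 87 on the lower side, with AKR/J array 3 behind 3 of the 4 lowest counts and AKR/J array 1 behind the other. Without AKR/J array 3, 124 of the 189 genes were still apart in the same direction. Array weights raised the counts to 1875 genes higher and 1473 lower than the mean of the others, and to 203 higher and 126 lower genes apart. When all 3 AKR/J arrays beyond the 15 others took the place of the pairwise tests, 373 higher and 198 lower genes qualified. A gap of at least 1 log2 unit left 7 and 10. The numbers in the titles come from different animals in each strain, and same-numbered AKR/J and other arrays deviated together with correlations of -0.136 to 0.271. With the replicate block, 1196 genes were higher and 914 lower, 94 and 76 were apart, and 151 of the 189 were shared. The mean of all probe sets of a gene kept 146 of the 189. Of the 30 genes with the widest gaps, 25 were apart under every alternative that could be run on them, and the exceptions were Apob, Rnase1, Swi5, Senp1 and Lipg. The direction turned for Apob (-0.0907) and Akap5 (-0.0302) with the brightest probe set in lung, neither passing, and for Xaf1 (-0.50) with the mean of all probe sets. Of the 90 genes chosen by the naming rule, 20 lost their call in at least 1 alternative, 17 when an array was left out and 9 under a processing choice: Aqp5, Blk, C6, Cd68, Cma1, Cyp2f2, Ednrb, Fos, Gsta2, Gzmb, Klra8, Ltf, Per2, Per3, Senp1, Tcf21, Upk1b, Upk3b, Zfp207 and Zfp36. A fit with fewer AKR/J arrays is less precise, so a call can end while the difference hardly moves. For Cd68 the difference was 0.53 to 0.61 without 1 of the AKR/J arrays, beside 0.56 with all arrays. Others moved more, such as Upk3b at -0.25 without AKR/J array 3, beside -0.42. The cause was not tested for any gene.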

Other observations

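The members below were chosen after their values were seen and stand for no group of genes. On the higher side, Fpr2, a formyl peptide receptor, read 10.48, 10.36 and 10.55 in AKR/J against 8.60 to 9.92 in the other lungs, and Fcgr4, a receptor for antibody, read 7.93, 7.89 and 7.58 against 6.39 to 7.40. Pik3ap1, an adaptor of phosphoinositide 3-kinase, read 10.33, 10.25 and 10.06 against 6.96 to 9.93, and Casp4, an inflammatory caspase, read 8.89, 9.0 and 8.92 against 7.72 to 8.37. The AKR/J arrays did not overlap with the others for any of these 4 genes.

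On the lower side, Vdr, the vitamin D receptor, read 5.84, 5.88 and 5.79 in AKR/J against 6.61 to 7.15, Hoxa5, a homeobox factor of lung patterning, read 7.97, 7.95 and 7.77 against 8.35 to 9.08, and Kit, the receptor for stem cell factor, read 10.05, 10.22 and 10.00 against 10.44 to 11.28. Tmem267 was higher in lung by 2.01 ± 0.14. It was also higher by limma in heart (1.68), kidney (3.43), liver (2.11) and testis (2.46). With all brain arrays kept, its difference of 1.45 in brain did not pass by limma (adjusted p = 0.0654).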
